A study of Mus musculus with 6 samples.

Results

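AC149090.1 is 1 of the 32285 genes in the feature table of a spatial RNA-seq study of ageing mouse brain. It was picked for its rise between young and 18-month-old sections, so its whole-section and regional levels at the 3 ages are given below as a description, without a test. Its level between brain regions played no part in that choice and was tested.

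The study applied the Visium assay to coronally cut brain, frozen and embedded in OCT, from male mice of the inbred C57BL/6J strain. A Visium slide carries a grid of barcoded spots that capture the RNA of the tissue above them, and each captured molecule is counted once as a UMI (unique molecular identifier). The groups were young (6 months), middle (18 months) and old (21 months), with 2 males and 2 sections each, and the labels give no treatment and no difference in genotype. Middle 2 and old 2 were on slide 2 and all remaining sections on slide 1, so no young section lay on slide 2.

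The 6 sections held between 60938938 and 77557934 UMIs in 2573 to 2973 spots, and the median spot held fewest UMIs in old 2 (20370) and most in young 1 (30093). Mitochondrially encoded transcripts took between 13.3% and 16.5% of UMIs. Replicates differed beyond counting error in each group, with a chi-square over genes of 24.0 to 45.6 for each degree of freedom. Young 1 had 64 hippocampal spots against 178 to 290 in the other sections. A spot covers several cells, so in these data fewer cells of a type and less RNA per cell cannot be told apart.

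In GENCODE M21 (GRCm38), AC149090.1 (ENSMUSG00000095041) lies on the minus strand of the unplaced scaffold JH584304.1, from 52190 to 59690, and is annotated as protein-coding. It has 2 transcripts. AC149090.1-201 has 7 exons and 2373 exonic bases, of which 438 are coding and 81.5% are untranslated. AC149090.1-202 has 4 exons and 4060 exonic bases, also with 438 coding bases, and its untranslated share is 89.2%. GENCODE links AC149090.1-202 to a RefSeq transcript of Pisd-ps3, which RefSeq classes as a transcribed pseudogene at 52674 to 59689 with no chromosome assigned. The same locus is therefore a coding gene in one annotation and a pseudogene in the other.

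The parent gene Pisd encodes phosphatidylserine decarboxylase. This enzyme sits in the inner mitochondrial membrane and converts phosphatidylserine, carried in from the endoplasmic reticulum by way of the outer membrane, into phosphatidylethanolamine, one of the main lipids of mitochondrial membranes. A pseudogene is a copy of a gene that is thought to have lost the parent's function, although some are transcribed. Pisd itself lies on chromosome 5 (32736301 to 32785646, minus strand). The copies Pisd-ps1, on chromosome 11 (3125904 to 3131004, plus strand), and Pisd-ps2, on chromosome 17 (3076578 to 3084183, minus strand), are not in the feature table of these sections. How reads that match several of these copies were assigned is not given in the sources used here, so the split of UMIs between AC149090.1 and its relatives is uncertain.

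AC149090.1 was an abundant transcript in every section. Young 1 held 9019 UMIs of the gene and young 2 held 11784. Middle 1 held 19696 and middle 2 held 21119, and old 1 held 18166 and old 2 held 16412. In CPM (the UMIs of the gene scaled to a section total of 1000000), the level was 117 in young 1 and 152 in young 2, 258 in middle 1 and 281 in middle 2, and 263 in old 1 and 269 in old 2. Both young sections lay below all 4 older sections, and the middle and old sections overlapped. That separation, in the same direction, was present in 15.3% of the 9589 genes with a mean of at least 10 CPM.

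The mean level was 134.6 ± 24.5 CPM in young, 269 ± 15.9 in middle and 266 ± 4.34 in old sections (SD, n = 2 each). Middle was 2.00-fold and old 1.98-fold of young, and the lowest older section was 1.70-fold of the highest young one. Old was 0.988-fold of middle, so the level at 21 months was about that at 18 months. In the edgeR fit across all genes the log2 fold change was 0.98 (SE 0.099) for middle against young, 0.94 (SE 0.099) for old against young and -0.04 (SE 0.098) for old against middle. The pooled SD between replicates of a group was 0.14 on the log2 scale. By size of the rise, AC149090.1 was in place 5 of the 9589 genes at 18 months and in place 7 at 21 months. Ordered by level within a section, it was at place 1382 in young 1 and 1071 in young 2, and between 522 and 563 in the older sections.

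Slide and age were partly joined in this layout. Within slide 1 alone, middle 1 was 1.92-fold and old 1 was 1.96-fold of the young mean, while old 1 was 1.02-fold of middle 1. Within slide 2, old 2 was 0.960-fold of middle 2. The rise was thus present among sections of 1 slide, and slide 2 gave no young value of its own. With equal numbers of spots of each region drawn from every section, so that the few hippocampal spots of young 1 did not weigh in, the edgeR log2 fold change was 1.01 (SE 0.088) for middle and 0.98 (SE 0.088) for old against young.

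**Figure D1:**
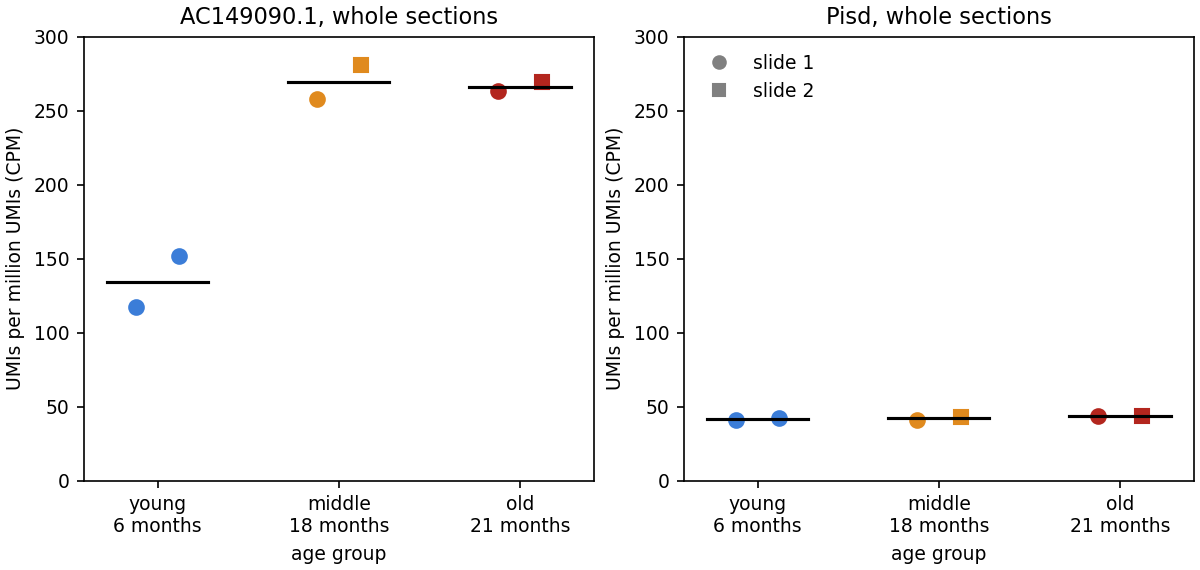
Level of AC149090.1 (left) and of Pisd (right) in whole sections, in CPM, by age group; each point is a section, circles mark slide 1 and squares slide 2, and bars are group means. The young sections sit at 117 and 152 CPM and the 4 older ones between 258 and 281 CPM for AC149090.1, while Pisd stays between 41.1 and 43.6 CPM in all 6.

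Pisd, the gene that encodes the enzyme, varied little between sections. Its CPM was 41.1 in young 1, 42.6 in young 2, 41.2 in middle 1, 43.2 in middle 2, 43.6 in old 1 and 43.5 in old 2. Both old sections were at the top of this narrow range, and the young and middle ones overlapped. After TMM scaling the edgeR log2 fold change of Pisd was -0.01 (SE 0.044) for middle against young and 0.01 (SE 0.044) for old against young, with adjusted p of 0.977 and 0.964. Across all genes tested, edgeR called 0.0679% for middle against young (0.0226% higher and 0.0453% lower) and 0.164% for old against young (0.0905% higher and 0.0736% lower) at an adjusted p under 0.05. At an unadjusted p under 0.05 there were 1382 of the 17673 genes for middle against young and 2246 for old against young.

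UMIs of AC149090.1 for each UMI of Pisd numbered 2.86 in young 1, 3.57 in young 2, 6.26 in middle 1, 6.50 in middle 2, 6.04 in old 1 and 6.19 in old 2. The ratio separated young from older sections as the CPM did, with a mean in middle sections 1.99-fold and in old sections 1.90-fold of that in young sections. These are UMIs per gene from the 3′ end of transcripts and were not scaled by transcript length.

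Other genes of the pathway were read from 2 lists. Of 16 listed genes of phosphatidylserine and phosphatidylethanolamine synthesis, 15 were tested, and edgeR called none in any of the 3 age comparisons (0 at an unadjusted p under 0.05 for middle against young, 1 for old against young and 0 for old against middle, with 0 called by DESeq2 in each). Their median log2 change in old against young sections was -0.06, with a range from -0.17 to 0.14, and over all genes the median was -0.002. Etnk1 (ethanolamine kinase, which starts the cytosolic route to phosphatidylethanolamine) was the most abundant of them and had a log2 change of -0.07 (SE 0.054, edgeR adjusted p = 0.607). Pcyt2, the next enzyme of the same route, gave 0.08 (SE 0.065, edgeR adjusted p = 0.629). Chka, a choline kinase, gave -0.14 (SE 0.061, edgeR adjusted p = 0.381). Ptdss1, which makes the phosphatidylserine that Pisd uses, gave -0.01 (SE 0.049, edgeR adjusted p = 0.953).

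Of 19 listed genes of mitochondrial phospholipid transport and membrane organisation, 18 were tested and edgeR called none in any comparison (1, 2 and 0 at an unadjusted p under 0.05 for middle against young, old against young and old against middle, and 0 by DESeq2 in each). The median log2 change in old against young sections was 0.05, with 12 values above 0 and 6 below. The 4 most abundant were Prelid1, an intermembrane-space lipid carrier, with a log2 change of 0.07 (SE 0.065), Mfn2, a fusion protein of the outer membrane, with -0.03 (SE 0.058), the carrier Slc25a46 with -0.04 (SE 0.050) and the prohibitin Phb with 0.07 (SE 0.075). In the comparison of old against middle, edgeR called 0% of all 17673 genes tested, with 361 at an unadjusted p under 0.05 and 0 called by DESeq2.

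Of the genes on unplaced or unlocalised scaffolds, the 3 others with a mean of at least 1 CPM did not share the separation. The feature table holds 77 genes that GENCODE M21 puts on 19 such scaffolds, of which 60 had no UMI in any section, and AC149090.1 gave 80.4% of the UMIs of all 77. It was the only one of them on its scaffold. Vamp7, a vesicle fusion protein, had a mean of 35.3 CPM and a log2 change of -0.02 (SE 0.045) in middle and -0.10 (SE 0.045) in old against young sections. CAAA01118383.1 had a mean of 9.22 CPM with changes of 0.07 (SE 0.085) and 0.11 (SE 0.086), and Spry3, of the Sprouty family of signalling inhibitors, had 7.93 CPM with changes of 0.07 (SE 0.10) and -0.01 (SE 0.11). Their adjusted p in edgeR was 0.392 or more.

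Most spots carried the transcript. At least 1 UMI was present in 83.9% of spots in young 1 (95% Wilson interval 82.4 to 85.2, counting error only), 86.4% in young 2 (85.1 to 87.6), 93.3% in middle 1 (92.3 to 94.2), 94.5% in middle 2 (93.6 to 95.3), 90.9% in old 1 (89.8 to 91.9) and 91.4% in old 2 (90.3 to 92.4). The share of positive spots had the old sections between young and middle, whereas the old spots were also the shallowest. After thinning each spot to 10000 UMIs, which left out 130 to 350 shallower spots per section, the share was 64.04% in young 1, 72.4% in young 2, 85.4% in middle 1, 87.9% in middle 2, 87.0% in old 1 and 87.5% in old 2. At equal depth the middle and old sections therefore overlapped, and both young sections stayed lower.

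The distribution over spots moved as a whole. The mean UMI count of the gene in a spot was 3.51 for young 1, 4.20 for young 2, 7.20 for middle 1, 7.54 for middle 2, 6.11 for old 1 and 5.75 for old 2. Spots with over 10 UMIs made up 2.95% of young 1 and 6.88% of young 2, but 23.2% of middle 1, 27.1% of middle 2, 18.7% of old 1 and 16.3% of old 2. The highest count in a spot was 19 in young 1, 27 in young 2, 46 in middle 1, 39 in middle 2, 35 in old 1 and 32 in old 2.

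**Figure D2:**
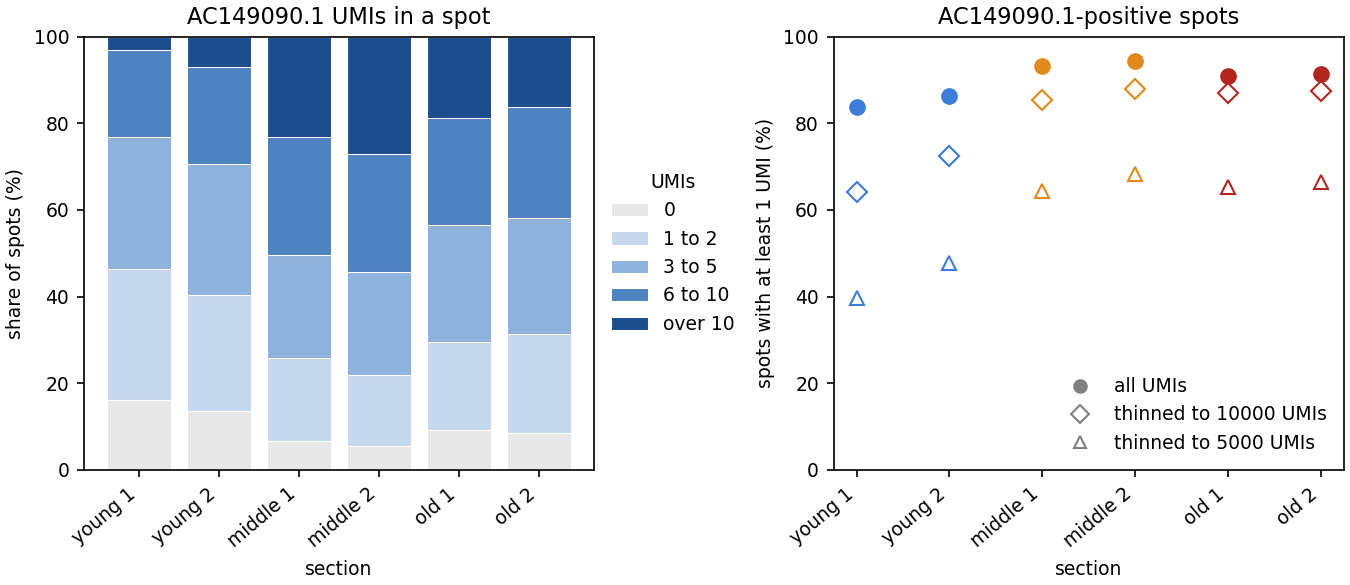
Left, share of spots (%) of each section by the number of AC149090.1 UMIs in the spot; right, share of spots (%) with at least 1 UMI with all UMIs (filled circles), after thinning to 10000 UMIs (diamonds) and after thinning to 5000 UMIs (triangles). Both young sections lie lowest in all 3 readings, and after thinning to 10000 UMIs the middle (85.4% and 87.9%) and old (87.0% and 87.5%) sections overlap.

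Spots were then grouped by their transcripts, without the Pisd family genes, into 19 clusters, and 17 of these (16216 of 16741 spots) took the name of 1 of 9 regions from marker genes. The names stand for groups of spots with like transcripts, not for outlined anatomy. The white matter cluster was led by C4b, Trf and the myelin gene Mal, of which C4b is a complement gene, and also held Gfap and Apod among its 10 leading genes.

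By mean over the 6 sections, AC149090.1 was highest in isocortex and lowest in white matter of the 9 regions. Isocortex lay above hippocampal formation in only 4 of 6 sections. Isocortex had 133 CPM in young 1, 158 in young 2, 299 in middle 1, 348 in middle 2, 316 in old 1 and 338 in old 2. White matter had 57.0, 69.6, 97.4, 122.7, 93.3 and 107.7 CPM in the same order. In every section white matter had a lower CPM of the transcript than isocortex. Averaged over the 6 sections, isocortex (265 CPM) was followed by hippocampal formation (261), striatum (235), amygdala and olfactory cortex (232) and meninges (232), and then by hypothalamus (180), thalamus (179), choroid plexus and ventricle (144) and white matter (91.3). Of neighbours in this order, meninges exceeded hypothalamus, thalamus exceeded choroid plexus, and choroid plexus exceeded white matter in 6 of 6 sections and by more than the SD of the paired difference. The other neighbours differed by less than that SD.

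Each region was compared with all other spots of its section by an exact two-sided sign-flip permutation test over the 6 sections, adjusted over 9 regions. The smallest p that 6 sections allow is 0.03125, and at least 6 regions must reach it for any to pass an adjusted 0.05, so these calls were made together. White matter differed by -1.297 ± 0.18 on the log2 scale (SD, n = 6, exact permutation p = 0.03125, adjusted p = 0.0469), which was the largest difference of the 9. Choroid plexus and ventricle (-0.66 ± 0.19, but -0.22 at a cluster resolution of 0.5 and -0.36 by highest marker score), hypothalamus (-0.34 ± 0.12) and thalamus (-0.34 ± 0.18) were also lower than the other spots in 6 of 6 sections, with the same exact permutation p and adjusted p. The hypothalamus included a cluster of 916 spots led by Slc5a7, Pmch, Ecel1 and Agt, with 1 hypothalamic marker among its 10 leading genes. Without that cluster the hypothalamus differed by -0.23. Isocortex (0.37 ± 0.15) and hippocampal formation (0.25 ± 0.17) were higher in 6 of 6 sections, again with the same exact permutation p and adjusted p.

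Striatum (0.09 ± 0.10) and amygdala and olfactory cortex (0.07 ± 0.07) did not pass, each with an adjusted p of 0.105 in the exact permutation test, and neither did meninges (0.05 ± 0.14, adjusted p = 0.4375 in the exact permutation test). Each of these 3 regions was higher than the other spots in 5 of 6 sections. Such regional differences were common. Of the 9589 genes with at least 10 CPM, 53.6% were lower in white matter in all 6 sections, 49.4% were lower in choroid plexus and ventricle, 34.1% in thalamus and 33.4% in hypothalamus, while 36.7% were higher in isocortex and 18.6% in hippocampal formation.

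The low level in white matter came with low depth. White matter spots had a median of 9586 to 14614 UMIs against 30297 to 41353 in isocortex. Within white matter, the third of spots with most UMIs (section medians 15269 to 22034) had 66.6 and 72.2 CPM in the young sections and 98.9 to 126 CPM in the older ones. The third of isocortex spots with fewest UMIs (section medians 21796 to 33202) had 126 and 143 CPM in the young and 270 to 315 CPM in the older sections. In each section the deepest white matter spots thus lay below the shallowest isocortex spots, but these sets were not matched in depth. The level also varied with depth inside both regions, and the shallowest spots had the lowest CPM in every section. White matter had 38.1 to 100.8 CPM in its shallowest spots and 66.6 to 126 CPM in its deepest. Isocortex had 126 to 315 CPM in its shallowest spots and 137 to 361 CPM in its deepest. The part of depth in the low level of white matter was not tested. Among spots with at least 10000 UMIs, each given equal weight, white matter differed from the other spots by -1.17 on the log2 scale. This floor does not make the depth of white matter equal to that of the other spots.

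Pisd had no such dip in white matter. Its level there differed from the other spots by -0.01 ± 0.14 on the log2 scale, and was higher in 3 of 6 sections. The ratio of AC149090.1 to Pisd was lower in white matter in 6 of 6 sections (-1.301 ± 0.21, exact permutation p = 0.03125), in hypothalamus (-0.49 ± 0.16) and in choroid plexus and ventricle (-0.52 ± 0.28), and higher in isocortex (0.28 ± 0.13). With only these 4 regions at the smallest p, none of the ratios passed after adjustment over 9 regions (adjusted p = 0.0703, exact permutation test). Thalamus was low in both genes, with -0.38 ± 0.11 for Pisd, and its ratio was higher in 3 of 6 sections. For Pisd alone no region passed (lowest adjusted p = 0.0938, exact permutation test).

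**Figure D3:**
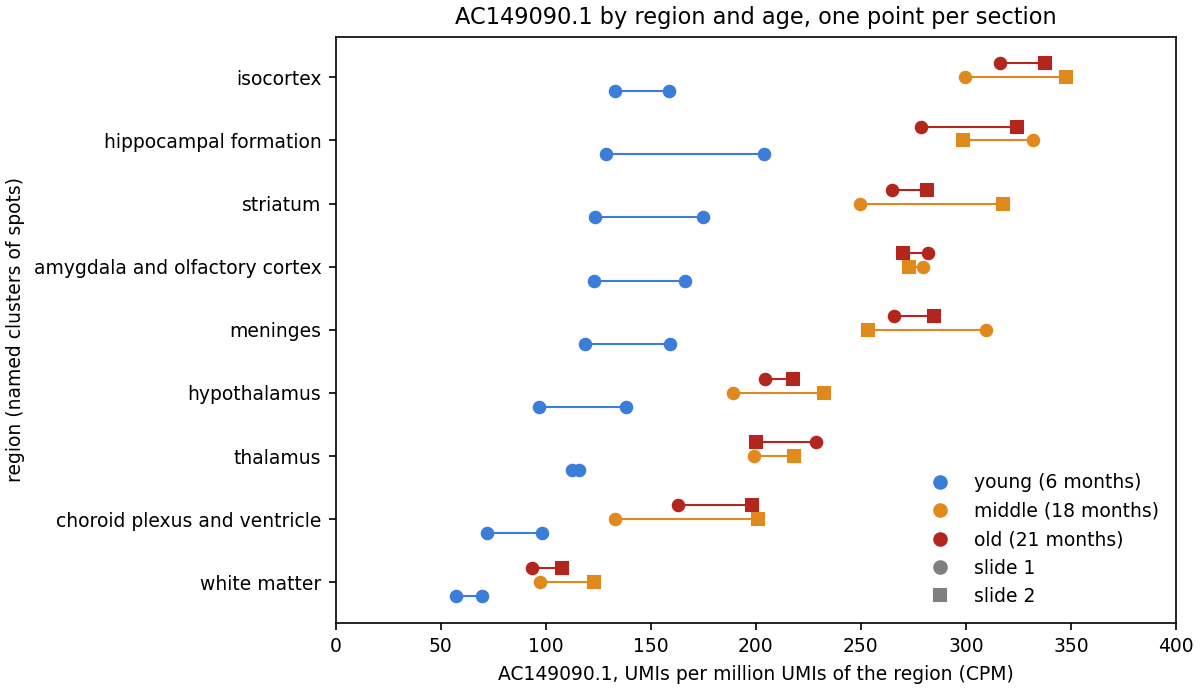
Level of AC149090.1 in 9 regions, in CPM of the region, with 1 point per section; colours give the age group, circles and squares slides 1 and 2, and lines join the 2 sections of a group. In every region both young points lie to the left of all middle and old points, from white matter (57.0 and 69.6 CPM) to isocortex (133 and 158 CPM).

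The separation by age recurred in each region. In all 9 regions both young sections lay below all 4 older sections, and in all 9 the middle and old values overlapped. Taken region by region, the share of the 9589 genes with that separation was 15% in isocortex, 6.87% in hippocampal formation, 10.1% in thalamus, 12.5% in hypothalamus, 10.7% in striatum, 9.92% in amygdala and olfactory cortex, 15.7% in white matter, 6.64% in choroid plexus and ventricle and 11% in meninges. Only 4 of the 9589, or 0.0417%, had it in all 9. AC149090.1, 1 of the 4, was picked for its rise, and genes near 10 CPM hold few UMIs in a small region such as choroid plexus and ventricle. The regions of a section share 1 animal and 1 library, so they do not count as replicates.

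Isocortex rose from 145.8 ± 17.9 CPM in young to 324 ± 34.2 in middle and 327 ± 15.0 in old sections (SD, n = 2 each), or 2.22-fold and 2.24-fold. In white matter the means were 63.3 ± 8.88, 110 ± 17.9 and 100.5 ± 10.2 CPM, or 1.74-fold and 1.59-fold. These were the largest and the smallest fold of the 9 regions at both ages, and whether they differ was not tested. Hippocampal formation held 129 and 204 CPM in the 2 young sections, a wide spread, with 278 to 332 CPM in the older ones. Choroid plexus and ventricle held 72.1 and 98.2 CPM in the young sections and 133 to 201 CPM in the older ones. Young 2 lay above young 1 in 8 of 9 regions, thalamus being the exception with 112 against 116 CPM.

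The 3 other genes that were separated in all 9 regions were Tyrobp, Trem2 and Ndufb9, found after their values were seen. Tyrobp and Trem2 encode a signalling adaptor and its receptor on microglia. Tyrobp was at 56.1 and 54.0 CPM in the young sections, 74.2 and 83.4 in middle and 87.3 and 99.7 in old sections, and Trem2 at 17.6 and 18.9, 26.8 and 29.8, and 30.5 and 36.2 CPM. In both, the old sections lay above the middle ones, whereas those of AC149090.1 overlapped. Ndufb9, a subunit of respiratory complex I, was at 626 and 570 CPM in young, 653 and 674 in middle and 672 and 663 in old sections, or 1.11-fold and 1.12-fold of young.

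Markers of microglia moved with age alongside AC149090.1. The summed level of 12 microglial markers was 548 and 601 CPM in young, 692 and 748 in middle and 766 and 888 in old sections, and none of the 12 was at 0. All 12 had a higher estimate in old than in young sections, with 10 at an unadjusted p under 0.05. EdgeR called 2 of them, Tyrobp and Trem2 (DESeq2 called 7). The part of microglia in the rise of AC149090.1 was not tested. For middle against young, all 12 also had a higher estimate, with 9 at an unadjusted p under 0.05, 0 called by edgeR and 2 called by DESeq2. Of all 17673 genes tested, 1382 were at an unadjusted p under 0.05 for middle against young and 2246 for old against young (70 and 184 called by DESeq2).

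The summed level of 10 endothelial markers was 747 and 745 CPM in young, 801 and 816 in middle and 807 and 819 in old sections, and none of the 10 was at 0. In this sum both young sections lay below all 4 older ones and the middle and old sections overlapped, though the sums differed by far less than 2-fold. Bsg, with a mean of 526 CPM after TMM scaling, made up most of each sum. The markers did not move together: 7 had a higher and 3 a lower estimate in middle than in young sections. In old against young sections, 5 were higher and 5 lower. EdgeR called 0 endothelial markers in any age comparison, with 2 at an unadjusted p under 0.05 for middle against young (1 called by DESeq2), 3 for old against young (0 by DESeq2) and 2 for old against middle (0 by DESeq2). The part of endothelial cells in the rise of AC149090.1 was not tested either. Neuronal markers summed to 6689 to 7229 CPM and astrocyte markers to 3203 to 3418 CPM, with young and older sections overlapping in both, and edgeR called 0 of either in any age comparison. At an unadjusted p under 0.05 there were 0 neuronal markers in each comparison, and 0 astrocyte markers for middle against young, 1 for old against young (1 called by DESeq2) and 1 for old against middle.

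The young sections were also lowest in each of the 19 clusters. In each, every young section lay below every middle and old section, counting sections with at least 20 spots in the cluster; the cluster led by Gm5741 and Gng8 and that led by Spink8 and Fibcd1 had young 2 only. Of the 9589 genes, 0.0104% had this in all 19 clusters, which is AC149090.1 alone. It was picked for its rise, and genes near 10 CPM hold few UMIs in a small cluster, so this share is a description only. The clusters of a section share 1 animal and 1 library and do not count as replicates. The fold of AC149090.1 over young ran from 1.301 to 2.40 in middle and from 1.28 to 2.51 in old sections. The smallest old fold was in the hippocampal cluster led by Spink8 and Fibcd1, with 219 CPM in young 2 and 269 to 315 CPM in the older sections. The largest was in the isocortex cluster led by Trbc2, Ccn2, Vxn and Ighm, with 136 and 172 CPM in the young and 335 to 416 CPM in the older sections.

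Within isocortex 1 cluster was constant in its place. The cluster led by Fezf2, Myl4 and Dkkl1 was the lowest of 5 in all 6 sections, with a mean of 201 CPM. The cluster led by Trbc2, Ccn2, Vxn and Ighm was highest in 4 sections (mean 304 CPM), and that led by Lamp5, Vip, Igfbp6 and Rasgrf2 was highest in the other 2 (mean 294 CPM). No cluster was assigned to a cortical layer. The lowest cluster of the whole brain section was one without a region name, led by Six3, Pvalb, Spp1 and Gad1, at a mean of 84.2 CPM. Its young sections had 56.2 and 76.2 CPM and its lowest older section 77.0 CPM, the narrowest gap of the 19.

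**Figure D4:**
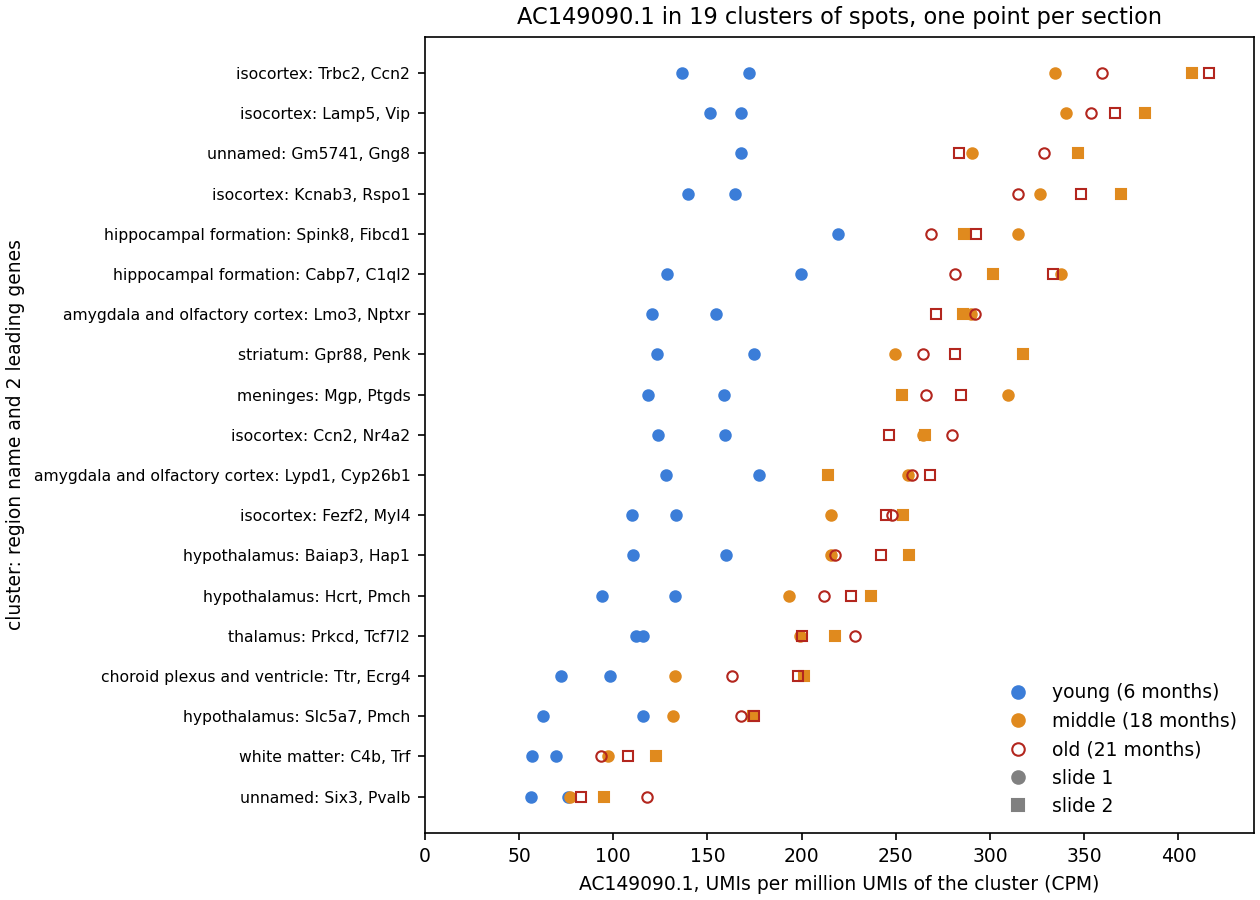
Level of AC149090.1 in 19 clusters of spots, in CPM of the cluster, ordered by mean, with 1 point per section that has at least 20 spots there; colours give the age group (old as open symbols), circles and squares slides 1 and 2. Young points lie left of all others in each cluster, by least in the cluster led by Six3 and Pvalb (76.2 against 77.0 CPM).

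Spots were also ordered by the share of their UMIs from 21 white matter markers and cut into 5 equal bins within each section. In young sections the mean level of AC149090.1 went from 163 ± 35.2 CPM in bin 1, with the least myelin, to 78.4 ± 17.4 in bin 5 (SD, n = 2). In middle sections it went from 332 ± 5.80 to 160 ± 13.3 CPM and in old sections from 321 ± 0.314 to 147 ± 11.9 CPM. The level was lower in each bin than in the one before in all 6 sections. The fold of middle over young lay between 1.98 and 2.11 and that of old over young between 1.88 and 2.10 in the 5 bins, and in each the young sections lay below the older ones.

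**Figure D5:**
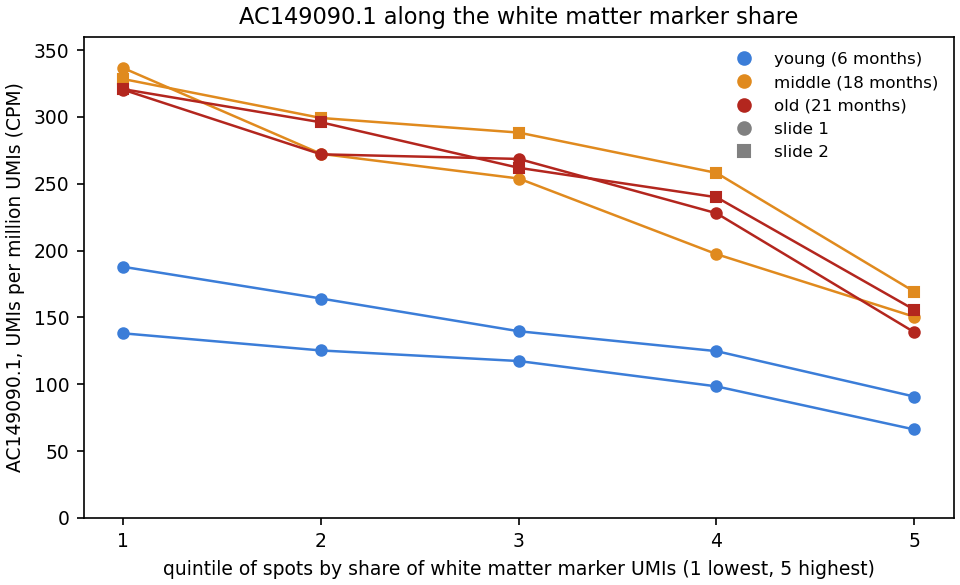
Level of AC149090.1, in CPM, in 5 bins of the spots of each section ordered by the share of white matter marker UMIs (1 lowest, 5 highest); each line is a section, with circles for slide 1 and squares for slide 2. All 6 lines fall, and the 2 young lines lie below the 4 others in every bin, from 188 against 320 CPM at the nearest in bin 1 to 90.7 against 139 CPM in bin 5.

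Genes of like pattern were ranked among 9588 others with at least 10 CPM. Over 54 sums (9 regions in 6 sections, with section means removed, which share libraries and regions) the highest Pearson r with AC149090.1 were those of Paqr9 (0.93), Dlg3 (0.92), Cers6 (0.92), Ripor1 (0.92) and Phyhip (0.92), and 23 genes exceeded 0.9. Dlg3 encodes a scaffold protein of the synapse, and Cers6 a ceramide synthase. Pisd had an r of 0.22 and was at place 4952.

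Over the 6 whole sections, which are few and fall into 2 levels, the highest r were those of Eef1akmt2 (0.998), Uqcrc1 (0.994), Brd8 (0.992), Sirt5 (0.990) and Podxl (0.989), with 308 genes over 0.9. Uqcrc1 is a core subunit of respiratory complex III and Sirt5 a mitochondrial deacylase. Their own changes were small: Uqcrc1 had a mean of 248 CPM in young and 267 in old sections, and Sirt5 of 10.7 and 12.3 CPM. The gene with the largest change of these 10 was Podxl, with a log2 difference of 0.29 (SE 0.065, edgeR adjusted p = 0.351) in middle against young sections. For these 10 genes the adjusted p in edgeR was 0.140 or more in every age comparison, and DESeq2 called Paqr9 lower in old than in young sections (-0.29, SE 0.081, adjusted p = 0.0409).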

How the data were processed

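Visium RNA-seq was measured in 6 coronal brain sections, 2 for each of 3 ages. Each deposited matrix gives the raw UMI count of a gene in a spot; per the file headers the authors used Space Ranger 1.3.1, and the build was mm10 per the submitters' processing notes. The other deposited columns hold spot barcodes and gene identifiers with symbols, per the file headers. The annotation release, the spot filter and the treatment of reads with several matches are not given in the sources used here. Of 32285 gene IDs, 32235 matched GENCODE M21, and the gene positions come from it.

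Spots under 500 UMIs were dropped (1 each in middle 2 and old 2), which kept 16741. Spots were scaled to 10000 UMIs, and 2000 variable genes without the Pisd family, microglial, mitochondrially encoded and haemoglobin genes were reduced to 30 components, joined by 20 neighbours and clustered (leidenalg 0.10.2, resolution 0.8). No doublet caller was used. A cluster took a region's name with at least 3 of its markers among the 50 leading genes, at least 1 among the first 10, and 2 times as many as any other region, or more. Section totals of 60938938 to 77557934 UMIs set the counting error of each value.

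UMIs were summed per section, or per region and section, and given as CPM. Genes were tested between ages with the quasi-likelihood test of edgeR 4.0.16 (robust, TMM factors, low-count filter, all 6 sections, age group as the only term, two-sided, Benjamini-Hochberg over 17673 genes). Regions were tested within sections with the exact sign-flip test on log2(CPM + 1). Thinned shares are exact expectations. On simulated data both tests recovered most of the shifts put in. In the edgeR simulation the shift was 1 on the log2 scale, in old sections only, so recovery of smaller changes was not measured. The ratio to Pisd, the bins by white matter marker share or by depth, and the shares of all genes with the same separation were added after values were seen.

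Named genes were AC149090.1, Pisd, scaffold genes with a mean of at least 1 CPM, the 4 most abundant genes of each phospholipid list (none was called), and the 5 most alike by each measure. AC149090.1, the gene lists, the markers and the cluster naming rule were chosen with earlier results of these data known. Whether replicate sections came from separate animals is given only as 2 males per age, and p-values measure the spread between these sections. Other settings tried were RLE factors, DESeq2 1.42.0, no filter, thinned counts, slide or replicate number as a block, mitochondrially encoded genes left out, equal numbers of spots per region, other region definitions, a pseudocount of 0.1, and each section left out.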

Additional observations from a re-analysis of the deposited data

How the results depend on the processing

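The log2 rise of AC149090.1 kept its direction in every alternative run. Leaving out 1 section gave 0.83 (without young 1) to 1.15 (without young 2) for middle against young, 0.78 to 1.11 for old against young, and -0.08 to -0.01 for old against middle; with 1 young section left, its spread is assumed to be that of the other groups. Replicate numbers are not stated to pair sections: deviations of sections numbered 1 correlated at 0.26, 0.55 and 0.56 over 5000 genes. For middle and old sections the replicate number is also the slide number. The 0.56, of middle 1 and old 1, therefore cannot be told apart from a slide difference. With the replicate number as a block the values were 0.99, 0.94 and -0.04, and genes called numbered 10, 21 and 0. For middle against young, genes called went from 12 to 70 in DESeq2, 58 with no filter, 3 with slide as a block and 6 without mitochondrially encoded genes, and for old against young from 29 to 184, 113 and 7 in the first 3 of these. Leaving out 1 section gave 1 to 33 called genes for middle against young, 6 to 75 for old against young and 0 to 1 for old against middle. Among regions, meninges reversed to -0.014 at a cluster resolution of 1.2 and to -0.12 when spots took the region of their highest marker score. Under the same marker score choroid plexus and ventricle moved from -0.66 to -0.36, and at a resolution of 0.5 to -0.22, and still passed. At a resolution of 0.5 the cluster of that name held 501 spots, against 280 at 0.8, with Gm5741 and Gng8 among its 10 leading genes. At 0.8 these genes led a separate cluster without a region name, with a mean of 283 CPM. Among spots with at least 10000 UMIs, each given equal weight, hippocampal formation (0.31, adjusted p = 0.0703, exact permutation test) no longer passed. Striatum (0.14) and amygdala and olfactory cortex (0.15) then passed (adjusted p = 0.0402, exact permutation test). The cause of these shifts was not tested. With 1 section left out, the region estimates kept their sign, from -1.34 to -1.25 in white matter and from 0.35 to 0.43 in isocortex, but 5 sections cannot give an exact p under 0.0625. An alternative added after the data were seen, hypothalamus without the cluster that had 1 marker among its 10 leading genes, gave -0.23. Positive shares of spots depend on depth: thinning to 5000 UMIs gave means of 43.7%, 66.3% and 65.9% in young, middle and old.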
